A study of Rattus norvegicus with 11 samples.

Results

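Potassium channel genes were described in rat primary hippocampal neurons that expressed a mutant linker histone, the wild-type linker histone or a control protein. They were taken as all gene entries whose symbol starts with Kcn, without the Kv channel interacting proteins (Kcnip), which gave 90 of 42172 entries. Each of the 90 had at least 1 count in some library. After the low-count filter 75 (83.3%) were tested, beside 17294 of all entries.

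Polyadenylated RNA was sequenced from cultures of CD (Sprague Dawley) IGS rats at day 7 in vitro. The 4 H1.4 CFT libraries come from neurons given linker histone H1.4 whose C-terminal tail is frameshifted, the 4 WT H1.4 libraries from neurons given the unaltered histone, and the 3 GFP libraries from controls given green fluorescent protein, each introduced from outside, and the labels describe no removal of the neurons' own histone genes. The promoter and species of the constructs are not given in the sources used here. Libraries are called CFT 1 to 4, WT 1 to 4 and GFP 2 to 4, after their labels. Counts assigned to genes ran from 12070941 to 18846492 per library, so that 1 count was worth 0.0519 to 0.0839 CPM, the count scaled to a common library size after TMM scaling for composition. All levels are CPM and not corrected for transcript length, so they compare libraries and not genes. Means are given ± SD over 4 H1.4 CFT, 4 WT H1.4 and 3 GFP libraries, and the adjusted p is that of edgeR's quasi-likelihood test with Benjamini-Hochberg adjustment over all tested genes. As a check of the labelled cell type, 7 of 7 neuronal markers passed the low-count filter, and so did 9 of 9 astrocyte, 8 of 8 oligodendrocyte lineage and 4 of 4 ependymal markers, against 2 of 7 microglial ones.

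Potassium channels let potassium leave the neuron and thereby set its resting potential, end its action potentials and space its firing. Voltage-gated (Kv) channels are tetramers of alpha subunits, some of which are electrically silent modifiers that form channels only together with Kv2 subunits. Calcium- and sodium-activated channels give afterhyperpolarizations, inward rectifiers hold the resting potential and answer to G proteins or ATP, and tandem-pore (K2P) channels carry leak current. In hippocampal neurons these families share the control of excitability between axon, soma and dendrite.

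Upstream sequences are shown for 5 members with a window in the RefSeq promoter table. They are Kcnt1, which rose most, Kcng2 and Kcnh7, which were among the members that fell most, and Kcnj9 and Kcnj6, whose products share one channel type and whose transcripts went opposite ways against GFP. Each is the 250 bases before the annotated start, from build GRCr8, while the counts were made on mRatBN7.2. Kcnt1 has 2 annotated starts. Capitals mark GC boxes (GGGCGG, searched on both strands, so that CCGCCC marks the other strand).
Kcnt1, chr3:29081089-29081338, plus strand: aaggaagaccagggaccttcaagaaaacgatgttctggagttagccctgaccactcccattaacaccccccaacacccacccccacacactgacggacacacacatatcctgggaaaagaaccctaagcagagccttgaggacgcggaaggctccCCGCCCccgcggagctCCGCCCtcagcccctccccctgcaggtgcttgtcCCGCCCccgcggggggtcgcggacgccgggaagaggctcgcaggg
Kcnt1, chr3:29095846-29096095, plus strand: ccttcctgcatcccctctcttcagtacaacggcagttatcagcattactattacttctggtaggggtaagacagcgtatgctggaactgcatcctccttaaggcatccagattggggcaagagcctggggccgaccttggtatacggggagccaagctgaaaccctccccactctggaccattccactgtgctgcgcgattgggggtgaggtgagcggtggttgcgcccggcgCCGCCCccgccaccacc
Kcng2, chr18:76083689-76083938, minus strand: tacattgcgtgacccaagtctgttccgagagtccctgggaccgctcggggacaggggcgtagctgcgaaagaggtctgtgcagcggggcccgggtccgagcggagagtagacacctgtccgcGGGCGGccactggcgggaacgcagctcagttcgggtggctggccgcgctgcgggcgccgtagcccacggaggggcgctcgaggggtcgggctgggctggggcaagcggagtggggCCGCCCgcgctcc
Kcnh7, chr3:68230672-68230921, minus strand: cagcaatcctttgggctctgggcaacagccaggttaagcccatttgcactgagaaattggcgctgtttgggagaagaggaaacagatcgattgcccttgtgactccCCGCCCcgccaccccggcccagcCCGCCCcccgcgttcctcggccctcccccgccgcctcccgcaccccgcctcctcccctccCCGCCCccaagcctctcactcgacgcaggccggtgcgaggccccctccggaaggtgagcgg
Kcnj9, chr13:87320294-87320543, minus strand: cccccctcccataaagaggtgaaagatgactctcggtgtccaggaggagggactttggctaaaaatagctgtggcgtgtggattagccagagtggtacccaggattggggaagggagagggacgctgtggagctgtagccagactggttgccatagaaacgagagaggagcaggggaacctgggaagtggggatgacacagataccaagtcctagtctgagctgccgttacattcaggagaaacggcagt
Kcnj6, chr11:47778349-47778598, minus strand: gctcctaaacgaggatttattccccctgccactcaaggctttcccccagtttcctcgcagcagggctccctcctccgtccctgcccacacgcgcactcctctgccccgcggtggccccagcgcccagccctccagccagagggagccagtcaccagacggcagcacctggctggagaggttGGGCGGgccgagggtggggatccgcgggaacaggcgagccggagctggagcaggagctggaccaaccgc
A GC box stood at least 1 time in the windows of Kcnt1 (3 in one, 1 in the other), Kcng2 (2), Kcnh7 (3) and Kcnj6 (1), and 0 times in that of Kcnj9. Of the 250-base windows of 27457 genes, 32.4% hold it. Of the 90 members 60 had a window, and members were not compared by promoter composition.

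Most potassium channel transcripts that changed in H1.4 CFT neurons were lower, against either of the other groups. With H1.4 CFT against WT H1.4, 38 of 75 tested members passed the test at an adjusted p of 0.05 (background 35.9% of all 17294 genes tested), and 33 of them fell and 5 rose. The background was 19.2% lower and 16.7% higher, where 33 of 75 members were lower and 5 of 75 higher. In H1.4 CFT against GFP, 34 of 75 passed (background 29.5%), of which 30 fell (background 16.2%) and 4 rose (background 13.3%). WT H1.4 against GFP gave 1 call among the members (background 0.943%), with 1 lower (background 0.509%) and 0 higher (background 0.434%). The H1.4 CFT libraries are the same in both of their comparisons, and the values are set side by side for that reason.

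The median log2 fold change of the 75 tested members was -0.25 with H1.4 CFT against WT H1.4 and -0.24 in H1.4 CFT against GFP, where the medians of all tested genes were 0.018 and 0.011. It was -0.047 in WT H1.4 against GFP, where that of all genes was -0.0011. CPM values did not overlap between the groups for 31 lower and 4 higher members with H1.4 CFT against WT H1.4 (backgrounds 18.5% and 16.1%). The corresponding numbers against GFP were 33 lower and 4 higher (backgrounds 18.5% and 17%). Together the 90 members took 0.222%, 0.223%, 0.205% and 0.210% of gene counts in CFT 1 to 4. They took 0.234%, 0.229%, 0.246% and 0.242% in WT 1 to 4 and 0.248%, 0.242% and 0.248% in GFP 2 to 4. Every H1.4 CFT library gave its potassium channel genes a smaller share of counts than any library of the other groups.

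**Figure D1:**
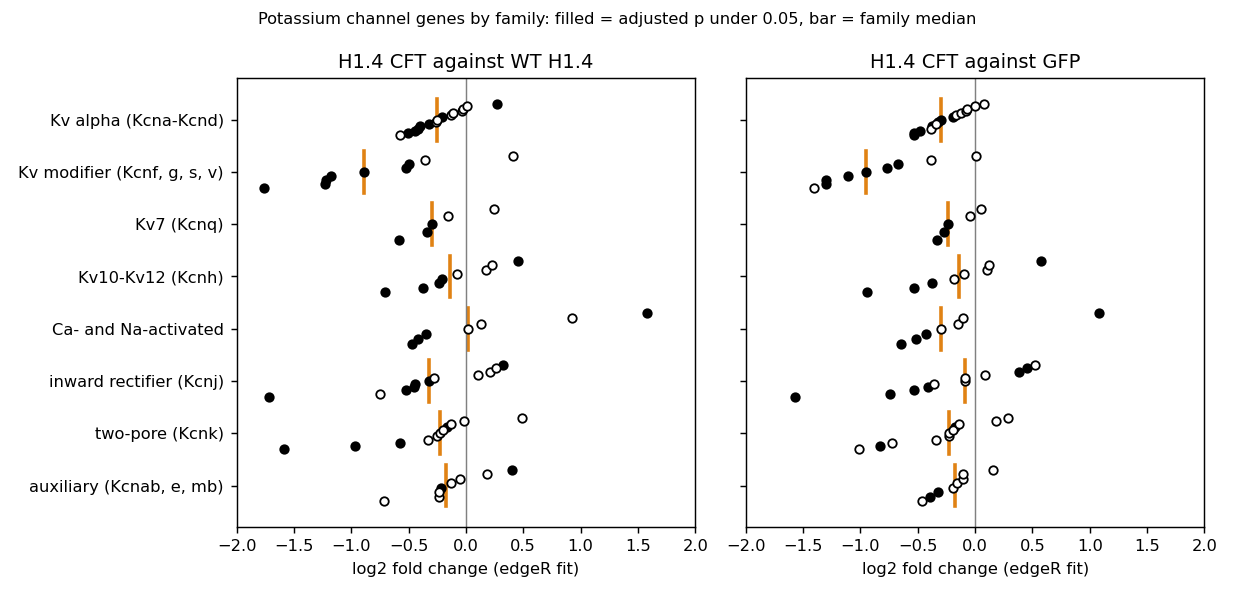
Log2 fold change of each tested potassium channel gene (x axis) by family (y axis), with H1.4 CFT against WT H1.4 on the left and H1.4 CFT against GFP on the right. Filled points passed an adjusted p of 0.05 and bars mark family medians. The modifier subunits have the lowest median in both panels (-0.89 and -0.95), and Kcnt1 is the point farthest to the right in each (1.58 and 1.08). The single member outside these families (Kcnrg) is not drawn.

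Neuronal markers moved in the same direction in these cultures, and in bulk samples fewer cells of a type cannot be told apart from less RNA per cell. Of 7 neuronal markers 6 fell and 0 rose with H1.4 CFT against WT H1.4, and their summed level was 3600 to 4270 CPM in H1.4 CFT, 5330 to 5430 in WT H1.4 and 5170 to 5360 in GFP. Of 9 astrocyte markers 5 rose and 0 fell against WT H1.4, with summed levels of 2050 to 2130 CPM in H1.4 CFT, 1560 to 1680 in WT H1.4 and 1990 to 2130 in GFP. The microglial sums were 8.06 to 12 CPM in H1.4 CFT, 10.5 to 14 in WT H1.4 and 11.2 to 12.8 in GFP. For oligodendrocyte lineage markers 0 of 8 passed in this comparison, with sums of 427 to 491 CPM in H1.4 CFT, 436 to 518 in WT H1.4 and 427 to 524 in GFP. The endothelial, mural and fibroblast sums were 53.8 to 65.2 CPM in H1.4 CFT, 48 to 63.5 in WT H1.4 and 69.1 to 74.3 in GFP (3 of 7 tested rose and 1 fell against WT H1.4). The ependymal sums were 23.6 to 30.7 CPM in H1.4 CFT, 14.5 to 17.9 in WT H1.4 and 16.7 to 21.5 in GFP (2 of 4 rose). Inhibitory neuron markers summed to 115 to 145 CPM in H1.4 CFT, 94.5 to 110 in WT H1.4 and 128 to 164 in GFP, and 4 of 5 tested rose against WT H1.4. Among excitatory hippocampal markers 3 of 6 fell and 0 rose, with sums of 1170 to 1270 CPM in H1.4 CFT, 1300 to 1520 in WT H1.4 and 1380 to 1420 in GFP. Against GFP, 6 neuronal and 3 excitatory markers fell, 2 inhibitory ones fell, and 2 astrocyte, 2 ependymal and 1 oligodendrocyte lineage markers rose. The microglial list gave 1 rise and 1 fall for H1.4 CFT against each of the other groups, and the endothelial, mural and fibroblast list 1 rise and 1 fall against GFP. In WT H1.4 against GFP, 5 of 9 astrocyte, 4 of 5 tested inhibitory and 2 of 7 tested endothelial, mural and fibroblast markers fell, 1 oligodendrocyte lineage marker rose, and 0 of 7 neuronal markers passed. Each listed marker had counts in some library. The part of these cell type differences in the channel results was not tested.

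Falls outnumbered rises at each level of mean CPM, which depends on transcript length as well as abundance. Among the 25 tested members with the highest mean CPM (33.7 to 282 CPM), 16 fell and 0 rose with H1.4 CFT against WT H1.4, while 28% of all genes within that range fell and 16.8% rose. Among the middle 25 (7.49 to 30.9 CPM) 11 fell and 4 rose, beside 17.2% and 17.4% of genes within the range. In the lowest 25 (0.356 to 6.60 CPM) 6 fell and 1 rose, where 6.64% of genes fell and 16.8% rose. Their medians were -0.24, -0.24 and -0.27 from the 25 of highest to the 25 of lowest mean CPM. Those of all genes in the ranges were -0.021, 0.034 and 0.16.

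The modifier (electrically silent) Kv subunits had the lowest median fold change of any family. These subunits join Kv2 subunits and change the voltage range and speed of the channel. Of 9 tested members, 7 fell with H1.4 CFT against WT H1.4 (background 19.2%), 0 rose (16.7%) and 2 did not pass, with a median log2 fold change of -0.89. Against GFP 6 fell (background 16.2%), 0 rose (13.3%) and 3 did not pass, with a median of -0.95. Kcng1, the most abundant of them in counts, had 70.4, 72.8, 67.7 and 72.7 CPM in CFT 1 to 4, against 98.1, 93.0, 106 and 103 CPM in WT 1 to 4 and 98.2, 115 and 125 CPM in GFP 2 to 4. All H1.4 CFT values lay below every other library, and the fall was called against WT H1.4 (log2 fold change -0.50 with SE 0.062, adjusted p = 7.71e-06) and against GFP (log2 fold change -0.67 with SE 0.066, adjusted p = 1.06e-06).

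Kcng2 of the same subfamily stood at 16.5, 13.7, 8.23 and 7.67 CPM in CFT 1 to 4, against 24.5, 25.4, 26.1 and 28.1 CPM in WT 1 to 4 and 27.4, 31.6 and 26.0 CPM in GFP 2 to 4. All H1.4 CFT values lay below every other library, and within H1.4 CFT the libraries CFT 3 and CFT 4 held the lowest values. The test gave log2 fold changes of -1.18 against WT H1.4 (with SE 0.21 and adjusted p = 0.00216) and -1.30 against GFP (with SE 0.23 and adjusted p = 0.00237). Its window above is the richest in CG dinucleotides of those shown, with 29 in 250 bases, where the median of 27457 genes was 6. Kcns2, a modifier of the Kcns subfamily, had 9.93, 9.34, 7.04 and 7.83 CPM in CFT 1 to 4, against 13.6, 17.2, 15.6 and 17.1 CPM in WT 1 to 4 and 14.8, 14.5 and 14.4 CPM in GFP 2 to 4. Here too every H1.4 CFT library was the lowest, with log2 fold changes of -0.89 against WT H1.4 (with SE 0.11 and adjusted p = 6.40e-06) and -0.77 against GFP (with SE 0.12 and adjusted p = 0.000103).

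Kcnf1, the only member of its subfamily, and Kcnv1 followed a graded order. Kcnf1 measured 5.45, 5.91, 5.51 and 5.86 CPM in CFT 1 to 4, against 9.37, 7.52, 8.05 and 7.58 CPM in WT 1 to 4 and 9.52, 12.2 and 11.2 CPM in GFP 2 to 4. Its H1.4 CFT values were lowest and its GFP values highest without overlap, and H1.4 CFT fell against WT H1.4 (log2 fold change -0.52 with SE 0.12, adjusted p = 0.00221) and against GFP (log2 fold change -0.95 with SE 0.13, adjusted p = 2.04e-05). For Kcnf1, WT H1.4 against GFP did not pass (log2 fold change -0.43, adjusted p = 0.124). Kcnv1 had 3.18, 2.87, 3.01 and 1.97 CPM in CFT 1 to 4, against 3.95, 3.40, 3.53 and 3.22 CPM in WT 1 to 4 and 4.79, 6.46 and 6.55 CPM in GFP 2 to 4. Its values kept the same order without overlap, and the fall against GFP passed (log2 fold change -1.11 with SE 0.19, adjusted p = 0.000194), while H1.4 CFT against WT H1.4 gave -0.36 (adjusted p = 0.130) and WT H1.4 against GFP gave -0.75 (adjusted p = 0.0583).

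The remaining modifiers gave few reads. Kcns1 had 1.65, 1.58, 0.398 and 0.467 CPM in CFT 1 to 4, against 3.68, 2.31, 1.27 and 2.19 CPM in WT 1 to 4 and 1.74, 1.59 and 0.721 CPM in GFP 2 to 4, and its libraries overlapped. Its call against WT H1.4 (log2 fold change -1.22 with SE 0.45, adjusted p = 0.0486) was lost on leaving out single libraries, with an adjusted p of 0.106 without CFT 3, 0.118 without CFT 4, 0.146 without WT 1, 0.0845 without WT 2, 0.0808 without WT 4, 0.0553 without GFP 2 and 0.0648 without GFP 3. Kcng3 and Kcns3 lay below 1 CPM on average, outside the rule for named genes, and were named after their values were seen. Kcns3 had 14, 8, 4 and 11 counts in CFT 1 to 4, against 17, 22, 21 and 20 counts in WT 1 to 4 and 20, 13 and 21 counts in GFP 2 to 4, and fell against WT H1.4 (log2 fold change -1.23 with SE 0.35, adjusted p = 0.00917) and GFP (log2 fold change -1.30 with SE 0.38, adjusted p = 0.0127), the second call with adjusted p = 0.0523 without GFP 2. Kcng3 had 1, 3, 7 and 1 counts in CFT 1 to 4, against 7, 7, 15 and 10 counts in WT 1 to 4 and 6, 8 and 5 counts in GFP 2 to 4, which is too few for a firm size. Its fall against WT H1.4 passed (log2 fold change -1.76 with SE 0.55, adjusted p = 0.0171) and its log2 fold change was -2.57 without CFT 3. Kcng4 did not pass in any comparison.

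**Figure D2:**
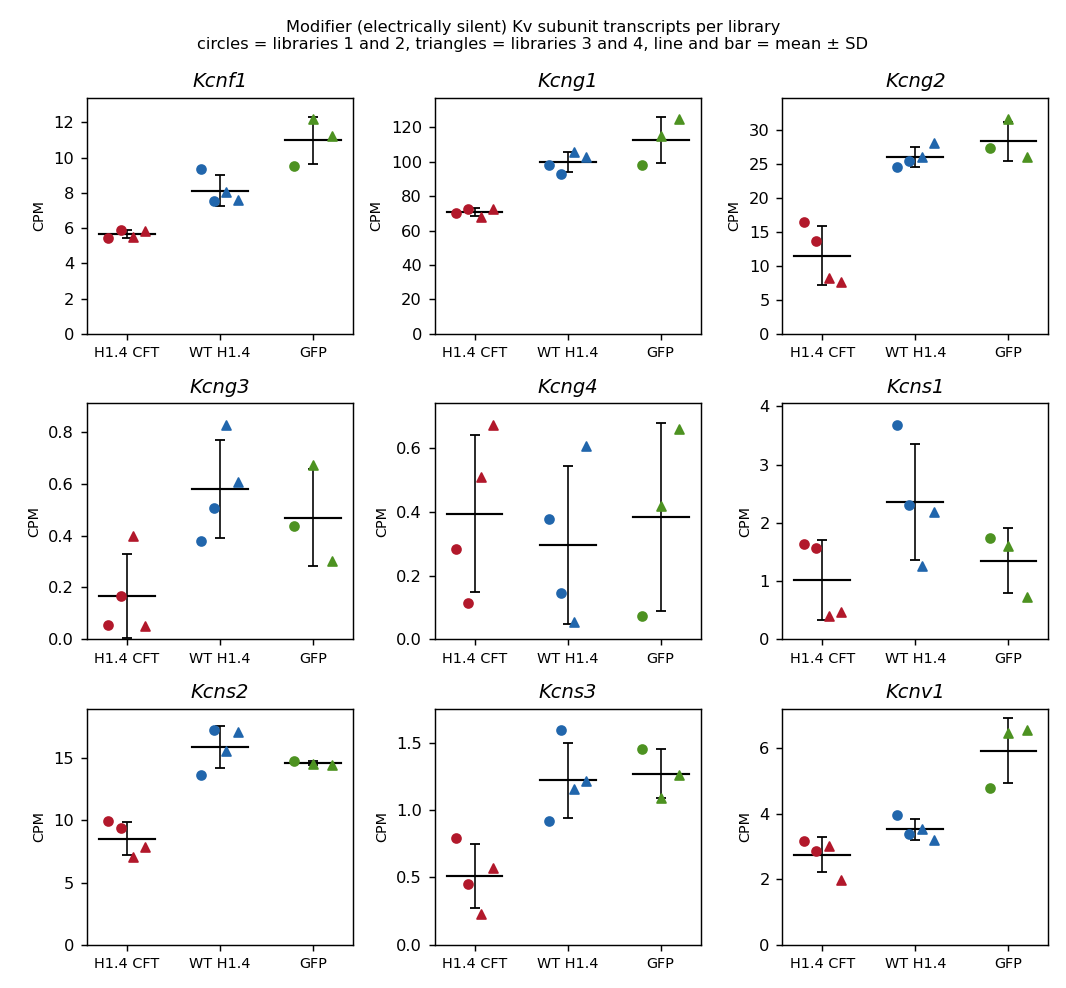
CPM per library of the 9 tested modifier subunit genes (y axis, from 0) in H1.4 CFT, WT H1.4 and GFP (x axis). Circles are libraries 1 and 2, triangles libraries 3 and 4, and lines with bars the mean ± SD. Kcng1, Kcng2, Kcns2 and Kcnf1 show all 4 H1.4 CFT libraries below all others.

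Among the Kv alpha subunits that carry delayed-rectifier and A-type current, 6 of 15 tested members fell with H1.4 CFT against WT H1.4 (background 19.2%), 1 rose (16.7%) and 8 did not pass. Against GFP 7 fell (background 16.2%) and 8 did not pass. The family median was -0.26 against WT H1.4 and -0.30 against GFP. Kcna3, Kcna7 and Kcnd1 were also among those without a call, with log2 fold changes against WT H1.4 of -0.26, -0.57 and -0.03. Kcna2, a low-threshold channel of axons, had 54.8, 58.9, 50.7 and 54.3 CPM in CFT 1 to 4, against 71.9, 73.8, 76.7 and 70.4 CPM in WT 1 to 4 and 81.9, 73.0 and 73.5 CPM in GFP 2 to 4. Its H1.4 CFT libraries were the lowest without overlap (log2 fold change -0.42 with SE 0.055, adjusted p = 9.55e-06 against WT H1.4, and log2 fold change -0.48 with SE 0.059, adjusted p = 8.53e-06 against GFP).

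Kcna6, among the 5 members with the highest mean CPM, had 90.6, 86.7, 82.7 and 77.2 CPM in CFT 1 to 4, against 105, 102, 109 and 105 CPM in WT 1 to 4 and 106, 101 and 104 CPM in GFP 2 to 4. All H1.4 CFT libraries were below the rest, and it fell on the log2 scale by 0.32 against WT H1.4 (with SE 0.048 and adjusted p = 4.59e-05) and by 0.30 against GFP (with SE 0.052 and adjusted p = 0.000260). Kcnd2, the A-type channel of dendrites, had 33.3, 32.7, 27.8 and 26.9 CPM in CFT 1 to 4, against 39.4, 36.7, 38.7 and 44.0 CPM in WT 1 to 4 and 39.5, 47.6 and 43.7 CPM in GFP 2 to 4. The H1.4 CFT values were again below all others, and the fall was called in both comparisons (log2 fold change -0.40 with SE 0.080, adjusted p = 0.000708 against WT H1.4, log2 fold change -0.53 with SE 0.087, adjusted p = 0.000141 against GFP). Kcnd3, which makes a similar current, had 84.4, 92.0, 87.8 and 86.7 CPM in CFT 1 to 4, against 87.3, 84.2, 95.9 and 92.5 CPM in WT 1 to 4 and 90.7, 86.5 and 85.8 CPM in GFP 2 to 4, with overlapping groups and no call (adjusted p = 0.579 against WT H1.4 and 0.987 against GFP).

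Of the other alpha subunits, Kcna4 averaged 23.2 ± 2.05 CPM in H1.4 CFT, 31.6 ± 3.60 CPM in WT H1.4 and 29.1 ± 1.81 CPM in GFP, and its log2 fold changes were -0.45 (adjusted p = 0.000371) against WT H1.4 and -0.33 (adjusted p = 0.0111, 0.0549 without GFP 2) against GFP. Kcnb2, a Kv2 subunit and so a possible partner of the modifiers, averaged 9.38 ± 1.5 CPM in H1.4 CFT, 13.3 ± 2.03 CPM in WT H1.4 and 13.7 ± 1.32 CPM in GFP. It fell in both comparisons, with log2 fold changes of -0.51 against WT H1.4 (adjusted p = 0.00420) and -0.54 against GFP (adjusted p = 0.00642). Kcna1, another axonal channel gene, fell against GFP (log2 fold change -0.37 with SE 0.080, adjusted p = 0.00191). Its call against WT H1.4 (log2 fold change -0.21 with SE 0.074, adjusted p = 0.0373) was lost with the replicate number as a block (adjusted p = 0.0593) and on leaving out single libraries, with adjusted p = 0.133 without CFT 3, 0.111 without CFT 4, 0.0531 without WT 2, 0.109 without WT 3 and 0.0796 without WT 4. Kcnc4, of the fast-gating Kv3 type, was the single alpha subunit that rose against WT H1.4 (log2 fold change 0.27 with SE 0.064, adjusted p = 0.00250). It measured 32.1, 34.4, 33.7 and 33.9 CPM in CFT 1 to 4, against 28.6, 25.6, 27.9 and 28.6 CPM in WT 1 to 4 and 34.2, 31.2 and 30 CPM in GFP 2 to 4. WT H1.4 was the lowest group for this gene, and H1.4 CFT against GFP did not pass (log2 fold change 0.08, adjusted p = 0.451). The Kv3 genes Kcnc1 and Kcnc2 passed in none of the 3 comparisons.

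Most Kv7 genes encode subunits of the M-current channels that hold back repetitive firing. In this family 3 of 5 members fell against WT H1.4 (background 19.2%) and the same number against GFP (background 16.2%), and 0 rose (backgrounds 16.7% and 13.3%). Kcnq5 and Kcnq3 fell against WT H1.4 with values of -0.30 (adjusted p = 0.000687) and -0.34 (adjusted p = 0.00766) on the log2 scale. Against GFP Kcnq5 gave -0.24 (adjusted p = 0.00989, 0.0894 without GFP 2), and Kcnq3 gave -0.34 (adjusted p = 0.0154, 0.0871 without GFP 4). Kcnq1, better known from heart and epithelia, averaged 46.0 ± 6.66 CPM in H1.4 CFT, 38.6 ± 5.57 CPM in WT H1.4 and 44.4 ± 4.33 CPM in GFP and did not pass in any comparison, although without the low-count filter it passed as higher against WT H1.4 (adjusted p = 0.00345).

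The Kcnh genes (Kv10 to Kv12, the ether-a-go-go relatives) moved both ways. Against WT H1.4, 4 of 8 members fell (background 19.2%), 1 rose (16.7%) and 3 did not pass. Against GFP 3 fell (background 16.2%), 1 rose (13.3%) and 4 did not pass. Kcnh7, a relative of the hERG channel gene, had 23.0, 20.7, 17.6 and 18.9 CPM in CFT 1 to 4, against 36.1, 29.2, 32.6 and 32.5 CPM in WT 1 to 4 and 38.4, 37.1 and 39.9 CPM in GFP 2 to 4. Every H1.4 CFT library was below every WT H1.4 library, and these in turn were below every GFP library. The log2 fold changes were -0.70 against WT H1.4 (with SE 0.082 and adjusted p = 2.73e-06) and -0.94 against GFP (with SE 0.088 and adjusted p = 3.84e-07), while WT H1.4 against GFP did not pass (-0.24, adjusted p = 0.250).

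Kcnh1, the founding ether-a-go-go gene in mammals, averaged 32.2 ± 2.49 CPM in H1.4 CFT, 41.7 ± 3.03 CPM in WT H1.4 and 46.4 ± 3.49 CPM in GFP and fell in both comparisons (-0.37 on the log2 scale against WT H1.4, adjusted p = 0.000411, and -0.53 against GFP, adjusted p = 3.88e-05). Kcnh3, a Kv12 gene of the forebrain, gave -0.38 against GFP (adjusted p = 0.00212). Its value against WT H1.4 (-0.24, adjusted p = 0.0210) had adjusted p = 0.0821 without CFT 3, 0.0777 without CFT 4 and 0.0521 without WT 3. Kcnh2, the counterpart of human hERG, passed narrowly against WT H1.4 (-0.21, adjusted p = 0.0430), but the adjusted p was 0.101 without CFT 2, 0.0535 without CFT 3, 0.124 without CFT 4, 0.0709 without WT 1, 0.0516 without WT 2 and 0.158 without WT 4, and 0.0548 with DESeq2. Kcnh5 rose against WT H1.4 and Kcnh4 rose against GFP. Kcnh5 had 5.50, 6.47, 6.64 and 6.27 CPM in CFT 1 to 4, against 4.88, 3.91, 4.85 and 4.49 CPM in WT 1 to 4 and 5.01, 6.46 and 5.77 CPM in GFP 2 to 4, where WT H1.4 was the lowest group (log2 fold change 0.45 with SE 0.14, adjusted p = 0.0138). Against GFP it did not pass (log2 fold change 0.12, adjusted p = 0.588). Kcnh4 measured 8.40, 9.85, 7.72 and 8.92 CPM in CFT 1 to 4, against 8.02, 8.75, 7.002 and 6.07 CPM in WT 1 to 4 and 6.61, 5.79 and 5.23 CPM in GFP 2 to 4. H1.4 CFT lay above GFP without overlap (log2 fold change 0.57 with SE 0.15, adjusted p = 0.00630), and H1.4 CFT against WT H1.4 overlapped (adjusted p = 0.178). Kcnh6 and Kcnh8 did not pass in any comparison.

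The calcium- and sodium-activated channels held the largest rise of any potassium channel gene. Kcnt1 encodes the sodium-activated channel Slack, which slows firing after bursts. It measured 21.5, 20.4, 23.0 and 22.1 CPM in CFT 1 to 4, against 7.47, 6.87, 7.995 and 6.62 CPM in WT 1 to 4 and 8.79, 13.3 and 9.14 CPM in GFP 2 to 4. The H1.4 CFT libraries lay far above all others and close to each other, with 2.99-fold more than WT H1.4 (log2 fold change 1.58 with SE 0.11, adjusted p = 1.75e-08) and 2.11-fold more than GFP (log2 fold change 1.08 with SE 0.12, adjusted p = 3.48e-06). WT H1.4 lay below GFP without overlap, although that difference did not pass (log2 fold change -0.50, with SE 0.13 and adjusted p = 0.0811).

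Its closest relative went the other way. Kcnt2, the Slick channel gene, had 22.6, 23.3, 18.6 and 23.4 CPM in CFT 1 to 4, against 31.9, 25.0, 30.7 and 29.7 CPM in WT 1 to 4 and 34.7, 33.7 and 35.1 CPM in GFP 2 to 4. H1.4 CFT was lowest and GFP highest without overlap, with log2 fold changes of -0.42 against WT H1.4 (with SE 0.084 and adjusted p = 0.000652) and -0.65 against GFP (with SE 0.090 and adjusted p = 2.57e-05). For Kcnt2, WT H1.4 against GFP did not pass (log2 fold change -0.23, adjusted p = 0.281). Kcnma1, the large-conductance (BK) channel gene that responds to calcium and voltage, had 59.8, 57.8, 47.4 and 46.9 CPM in CFT 1 to 4, against 73.3, 68.7, 78.2 and 72.9 CPM in WT 1 to 4 and 78.2, 73.4 and 75.7 CPM in GFP 2 to 4. Its fall passed in both comparisons (log2 fold change -0.47 with SE 0.071, adjusted p = 7.92e-05 against WT H1.4 and log2 fold change -0.52 with SE 0.077, adjusted p = 8.67e-05 against GFP). Kcnn2, a small-conductance (SK) channel of the afterhyperpolarization, averaged 56.4 ± 2.57 CPM in H1.4 CFT, 71.6 ± 4.99 CPM in WT H1.4 and 75.7 ± 8.57 CPM in GFP, with log2 fold changes of -0.35 against WT H1.4 (adjusted p = 0.000405) and -0.43 against GFP (adjusted p = 0.000165). The other SK genes, Kcnn1 and Kcnn3, and Kcnn4 did not pass in any comparison. In this family 3 of 7 tested members fell, 1 rose and 3 did not pass, and these counts were equal against WT H1.4 and GFP. The backgrounds were 19.2% lower and 16.7% higher against WT H1.4, and 16.2% and 13.3% against GFP.

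**Figure D3:**
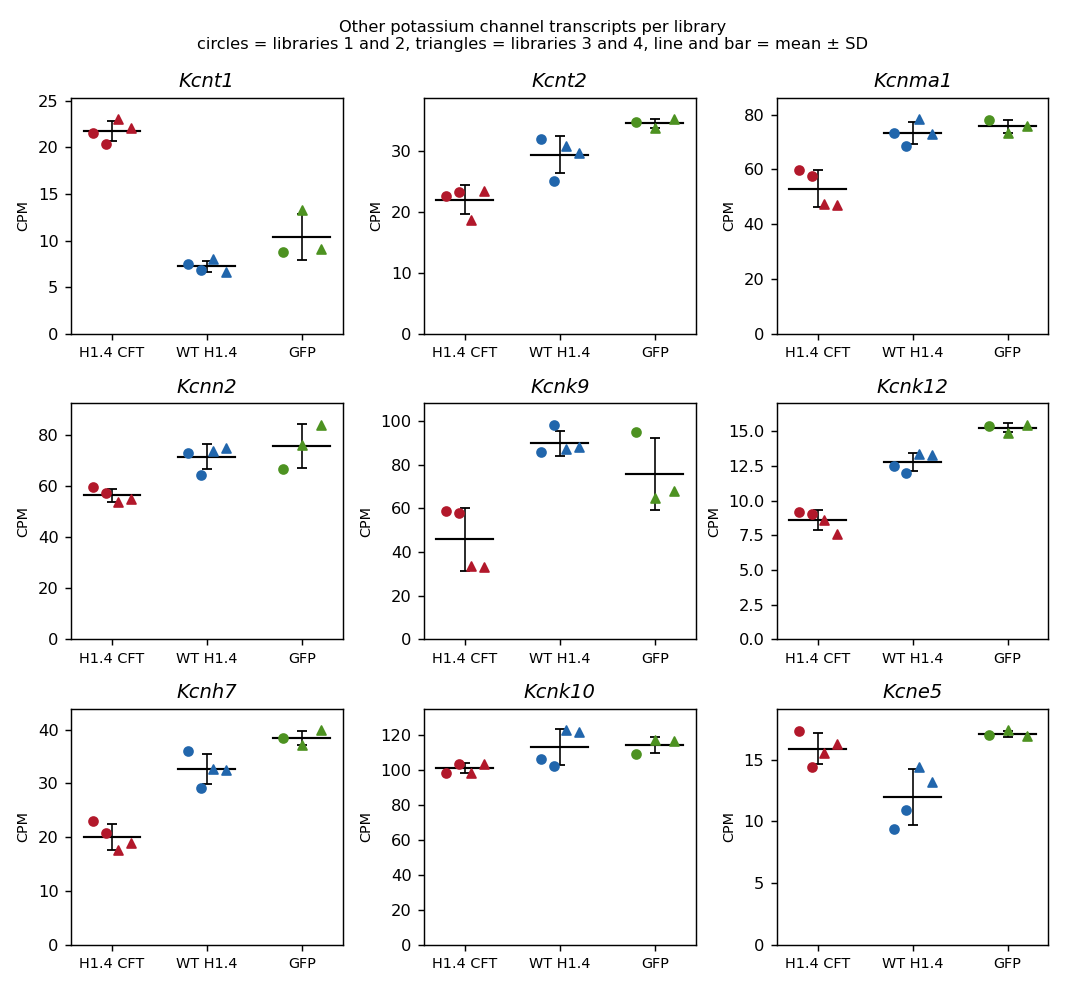
CPM per library (y axis, from 0) of 9 potassium channel genes of several families in H1.4 CFT, WT H1.4 and GFP (x axis). Circles are libraries 1 and 2, triangles libraries 3 and 4, and lines with bars the mean ± SD. Kcnt1 stands at 20.4 to 23.0 CPM in H1.4 CFT, above all other libraries, and Kcnt2, Kcnma1, Kcnn2, Kcnk12 and Kcnh7 have their lowest values there.

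Among the inward rectifiers, 5 of 11 tested members fell against WT H1.4 (background 19.2%), 1 rose (16.7%) and 5 did not pass. Against GFP 4 fell (background 16.2%), 2 rose (13.3%) and 5 did not pass. Kcnj12, a strong (Kir2) rectifier of the resting potential, had the largest fall of the members with a mean of at least 1 CPM. It measured 2.38, 2.36, 1.42 and 1.76 CPM in CFT 1 to 4, against 6.01, 6.87, 6.40 and 6.80 CPM in WT 1 to 4 and 6.32, 6.38 and 5.11 CPM in GFP 2 to 4. No H1.4 CFT value reached 2.5 CPM and no other value was under 5 CPM, which gave 3.28-fold less against WT H1.4 (log2 fold change -1.71 with SE 0.17, adjusted p = 5.58e-07) and 2.98-fold less against GFP (log2 fold change -1.57 with SE 0.19, adjusted p = 5.02e-06).

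Of the other Kir2 genes, Kcnj4 also fell, by less, while Kcnj14 rose and Kcnj2 did not pass. Kcnj4 had 15.9, 13.7, 11.02 and 10.6 CPM in CFT 1 to 4, against 16.1, 15.8, 20.5 and 17.4 CPM in WT 1 to 4 and 19.6, 21.0 and 23.3 CPM in GFP 2 to 4, with the lowest values in CFT 3 and CFT 4. It fell against WT H1.4 (log2 fold change -0.45 with SE 0.12, adjusted p = 0.00707), where CFT 1 overlapped the WT H1.4 libraries, and against GFP without overlap (log2 fold change -0.74 with SE 0.13, adjusted p = 0.000338). Kcnj14 rose, by 0.32 on the log2 scale against WT H1.4 (with SE 0.083 and adjusted p = 0.00490) and by 0.38 against GFP (with SE 0.092 and adjusted p = 0.00390). Its values were 26.1, 27.9, 27.6 and 28.6 CPM in CFT 1 to 4, against 20.1, 22.9, 21.1 and 24.1 CPM in WT 1 to 4 and 19.5, 24.9 and 19.4 CPM in GFP 2 to 4, so all H1.4 CFT libraries were above the rest. Kcnj2 was near 1 CPM (0.791 ± 0.247 CPM in H1.4 CFT, 1.32 ± 0.385 CPM in WT H1.4 and 0.855 ± 0.245 CPM in GFP) and did not pass, and neither did the epithelial and glial genes Kcnj13 and Kcnj16.

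The G-protein-gated (GIRK) genes, whose channels mediate slow inhibition by neurotransmitter receptors, split by member. Kcnj6, which encodes the main GIRK subunit of many neurons, had 47.6, 47.5, 37.9 and 42.7 CPM in CFT 1 to 4, against 54.1, 53.8, 63.8 and 67.2 CPM in WT 1 to 4 and 63.6, 61.1 and 65.2 CPM in GFP 2 to 4. The H1.4 CFT libraries were lowest without overlap (log2 fold change -0.44 with SE 0.081, adjusted p = 0.000460 against WT H1.4 and log2 fold change -0.53 with SE 0.087, adjusted p = 0.000277 against GFP). Kcnj3, which encodes a subunit that pairs with it, averaged 11.1 ± 0.759 CPM in H1.4 CFT, 15.9 ± 1.24 CPM in WT H1.4 and 14.6 ± 2.57 CPM in GFP and fell against WT H1.4 (log2 fold change -0.52 with SE 0.11, adjusted p = 0.000696). Against GFP it gave -0.41 (adjusted p = 0.0117, but 0.0609 without GFP 2 and 0.0865 without GFP 4). Kcnj9, which encodes another GIRK subunit of brain, had 27.6, 26.7, 22.8 and 24.3 CPM in CFT 1 to 4, against 21.9, 25.5, 19.6 and 20.8 CPM in WT 1 to 4 and 21.9, 17.7 and 16.1 CPM in GFP 2 to 4. H1.4 CFT lay above GFP without overlap (log2 fold change 0.45 with SE 0.11, adjusted p = 0.00423). Against WT H1.4 the groups overlapped (log2 fold change 0.21, adjusted p = 0.0980), although the blocked fit called it (0.21, SE 0.074, adjusted p = 0.0269).

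Kcnj10, the inward rectifier of astrocytes, had 43.5, 40.5, 40.0 and 42.7 CPM in CFT 1 to 4, against 38.4, 39.1, 43.2 and 34.2 CPM in WT 1 to 4 and 41.5, 46.5 and 45.0 CPM in GFP 2 to 4, and did not pass in any comparison, beside the astrocyte marker sums given above. Kcnj11, the pore of ATP-sensitive channels, averaged 5.66 ± 0.353 CPM in H1.4 CFT, 7.06 ± 0.761 CPM in WT H1.4 and 7.23 ± 0.608 CPM in GFP. Its value against WT H1.4 (log2 fold change -0.32, adjusted p = 0.0496) stood at the threshold and was lost on leaving out any of 9 libraries, with adjusted p = 0.0683 without CFT 1, 0.0585 without CFT 2, 0.0784 without CFT 3, 0.134 without CFT 4, 0.0929 without WT 1, 0.112 without WT 2, 0.112 without WT 3, 0.0505 without GFP 3 and 0.0555 without GFP 4. Against GFP it gave -0.36 (adjusted p = 0.0516, and 0.0478 with the replicate block).

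**Figure D4:**
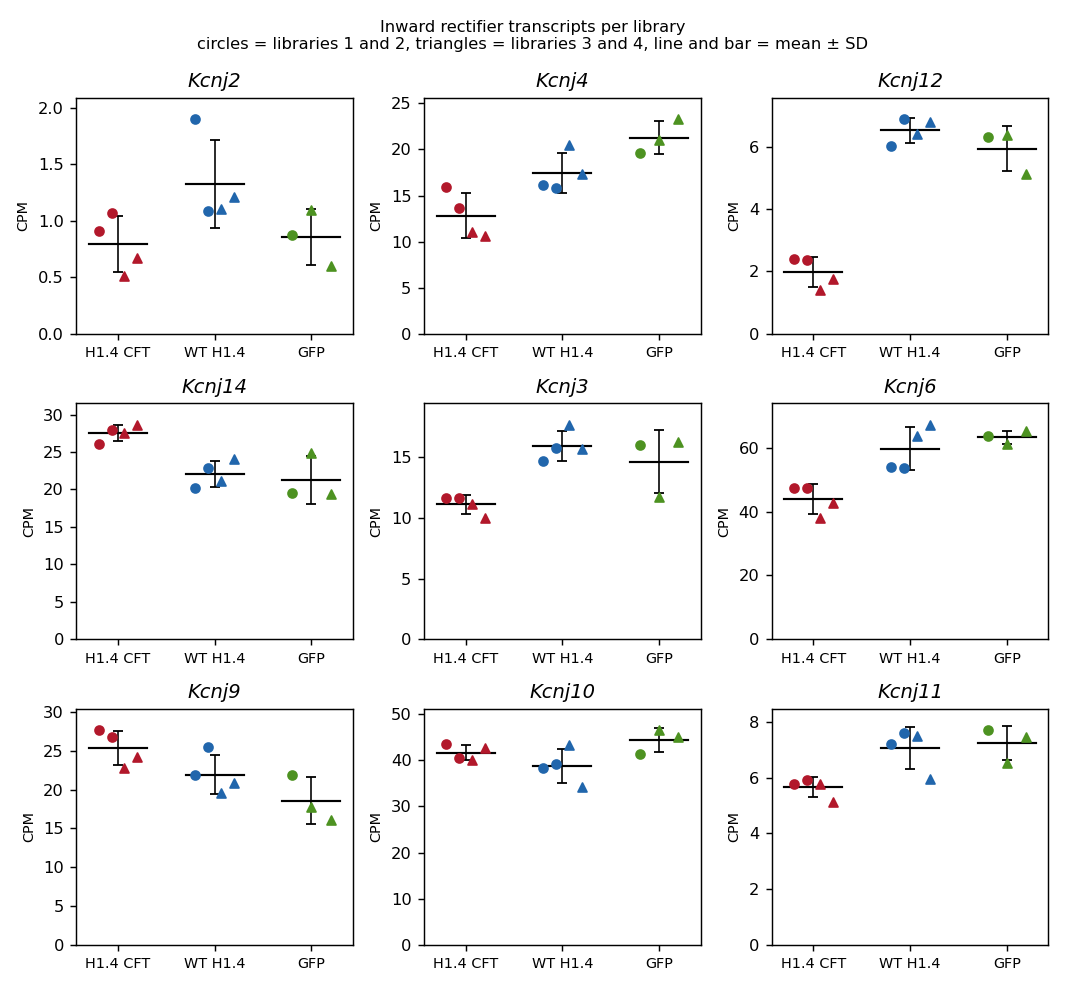
CPM per library (y axis, from 0) of 9 inward rectifier genes in H1.4 CFT, WT H1.4 and GFP (x axis). Circles are libraries 1 and 2, triangles libraries 3 and 4, and lines with bars the mean ± SD. Kcnj12 lies between 1.42 and 2.38 CPM in H1.4 CFT and between 5.11 and 6.87 CPM elsewhere, while Kcnj14 is highest in H1.4 CFT.

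In the K2P family of leak channels 4 of 11 tested members fell against WT H1.4 (background 19.2%) and 0 rose (16.7%). Against GFP 2 fell (background 16.2%), a share near the background, and 0 rose (13.3%). Kcnk9, an acid-sensitive (TASK) leak channel, had 58.7, 58.0, 33.5 and 33.2 CPM in CFT 1 to 4, against 86.0, 98.3, 87.3 and 88.0 CPM in WT 1 to 4 and 94.9, 64.6 and 68.1 CPM in GFP 2 to 4. It was lowest in H1.4 CFT without overlap with either group, and CFT 3 and CFT 4 were lower than CFT 1 and CFT 2. The fall passed against WT H1.4 (log2 fold change -0.97 with SE 0.22, adjusted p = 0.00977). Against GFP it did not (log2 fold change -0.73 with SE 0.24, adjusted p = 0.0533), though it did with the replicate block (log2 fold change -0.79, SE 0.18, adjusted p = 0.0194). Kcnk12, a member of the THIK subfamily, had 9.19, 9.06, 8.57 and 7.62 CPM in CFT 1 to 4, against 12.5, 12.01, 13.3 and 13.3 CPM in WT 1 to 4 and 15.4, 14.9 and 15.4 CPM in GFP 2 to 4. The 3 groups stood apart in the order H1.4 CFT, WT H1.4 and GFP from low to high (log2 fold change -0.57 with SE 0.095, adjusted p = 0.000124 against WT H1.4 and log2 fold change -0.82 with SE 0.10, adjusted p = 8.15e-06 against GFP). For Kcnk12, WT H1.4 against GFP did not pass (log2 fold change -0.25, adjusted p = 0.300). Kcnk10, a mechanosensitive (TREK) channel gene among the 5 members with the highest mean CPM, had 98.7, 104, 98.7 and 104 CPM in CFT 1 to 4, against 106, 102, 123 and 122 CPM in WT 1 to 4 and 109.5, 118 and 117 CPM in GFP 2 to 4. Its differences were small (log2 fold change -0.17 with SE 0.055, adjusted p = 0.0228 against WT H1.4, and log2 fold change -0.18 with SE 0.059, adjusted p = 0.0274 against GFP). The first had adjusted p = 0.0522 without CFT 1, 0.0623 without CFT 3, 0.0951 without WT 3 and 0.0927 without WT 4, and the second 0.0564 without CFT 1, 0.0667 without CFT 3, 0.0933 without GFP 3 and 0.0954 without GFP 4. Kcnk6 had 0.511, 0.732, 0.625 and 0.467 CPM in CFT 1 to 4, against 1.35, 1.88, 1.65 and 2.19 CPM in WT 1 to 4 and 2.11, 1.09 and 0.421 CPM in GFP 2 to 4. These are 9, 13, 11 and 9 counts in CFT 1 to 4. It fell against WT H1.4 (log2 fold change -1.58 with SE 0.37, adjusted p = 0.00250) and not against GFP (log2 fold change -1.01, adjusted p = 0.0832). Kcnk1, Kcnk2, Kcnk3, Kcnk4, Kcnk5, Kcnk13 and Kcnk15 did not pass against either group. With the replicate block Kcnk2 passed against WT H1.4 (log2 fold change -0.22, SE 0.074, adjusted p = 0.0205). Without the low-count filter Kcnk2 and Kcnk3 passed as lower against WT H1.4 (adjusted p of 0.0292 and 0.0199), and Kcnk1 and Kcnk3 passed as lower against GFP (adjusted p of 0.015 and 0.00342).

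The auxiliary subunits mostly did not pass. Against WT H1.4, 1 of 8 tested members fell (background 19.2%) and 1 rose (16.7%), and against GFP 2 fell (16.2%) and 0 rose (13.3%). With 8 members these counts are near the backgrounds. Kcnab2, the cytoplasmic beta subunit of Kv1 channels, averaged 43.4 ± 3.38 CPM in H1.4 CFT, 50.4 ± 2.50 CPM in WT H1.4 and 54.2 ± 0.350 CPM in GFP, and fell in both comparisons (log2 fold change -0.22 with SE 0.060, adjusted p = 0.00776 against WT H1.4, log2 fold change -0.32 with SE 0.065, adjusted p = 0.000874 against GFP). Kcnab1, its relative, fell against GFP (log2 fold change -0.39 with SE 0.11, adjusted p = 0.00923), with adjusted p = 0.0503 without GFP 3. Against WT H1.4 it gave -0.24 (adjusted p = 0.0687, and 0.0226 without the low-count filter). Kcnmb2 and Kcnmb4, auxiliary subunits of the BK channel, did not pass, nor did Kcnab3, Kcne2 and Kcne3. Kcne5, a single-pass accessory subunit, was the only member called in WT H1.4 against GFP. It had 17.4, 14.4, 15.6 and 16.3 CPM in CFT 1 to 4, against 9.43, 10.9, 14.4 and 13.2 CPM in WT 1 to 4 and 17.0, 17.4 and 16.9 CPM in GFP 2 to 4. WT H1.4 was lowest, at values that did not overlap GFP. CFT 2 (14.41 CPM) lay just below WT 3 (14.45 CPM), so H1.4 CFT and WT H1.4 overlapped. H1.4 CFT rose against WT H1.4 (log2 fold change 0.41 with SE 0.11, adjusted p = 0.00751) and gave -0.10 against GFP (adjusted p = 0.547).

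WT H1.4 against GFP gave this 1 fall and 0 rises among 75 tested members. At an unadjusted p under 0.05 there were 18 members, 3 of them higher, where 11.5% of all tested genes reached that level. The value of Kcne5 (log2 fold change -0.51 with SE 0.12, adjusted p = 0.0480) had adjusted p = 0.0541 without CFT 3, 0.137 without WT 1, 0.145 without WT 2, 0.0726 without WT 4, 0.0705 without GFP 2, 0.210 without GFP 3 and 0.219 without GFP 4. DESeq2 called 3 members lower (Kcne5, Kcnt1 and Kcnv1, background 0.951%) and 0 higher (background 0.958%). WT H1.4 libraries lay below all GFP libraries for 11 members (background 5.94%) and above them for 1 (background 6.29%).

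The remaining 15 members did not pass the low-count filter. They were Kcna5, Kcna10, Kcnv2, Kcne1, Kcne4, Kcnmb1, Kcnmb3, Kcnu1, Kcnj1, Kcnj5, Kcnj8, Kcnj15, Kcnk7, Kcnk16 and Kcnk18, with 1 to 68 counts over the 11 libraries. Kcnj8, an ATP-sensitive channel gene of mural cells, had 1 count in all. Kcna5 had 9, 10, 2 and 10 counts in CFT 1 to 4, against 1, 3, 0 and 2 counts in WT 1 to 4 and 4, 0 and 0 counts in GFP 2 to 4. In a fit without the filter H1.4 CFT was higher against WT H1.4 (background 10.2%, log2 fold change 2.13, SE 0.76, adjusted p = 0.0276), and its few counts leave the size of that difference uncertain. Differences for the other 14 were not detectable at this depth in the unfiltered fit of that comparison. Kcnrg, a regulator gene with the same prefix that is no channel, averaged 5.77 ± 0.830 CPM in H1.4 CFT, 6.96 ± 0.981 CPM in WT H1.4 and 6.40 ± 1.74 CPM in GFP and did not pass.

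A list of 41 genes whose products anchor, assist or resemble potassium channels was set beside the members, and 38 of them were tested. Against WT H1.4, 22 of the 38 fell (background 19.2%), 1 rose (background 16.7%) and 15 did not pass, with a median of -0.25. Against GFP, 20 fell (background 16.2%), 1 rose (background 13.3%) and 17 did not pass, with a median of -0.24. In WT H1.4 against GFP 0 passed by edgeR, DESeq2 or limma-voom. At an unadjusted p under 0.05 in edgeR 3 of the 38 were higher and 1 lower. Of all tested genes 11.5% reached that level, and the partner genes together are near that share. Ank3, the ankyrin that holds Kv7 and sodium channels at the axon initial segment, averaged 292 ± 49.2 CPM in H1.4 CFT, 494 ± 5.27 CPM in WT H1.4 and 480.0 ± 34.5 CPM in GFP (log2 fold change -0.76 with SE 0.10, adjusted p = 0.000337 against WT H1.4). Dpp10 and Dpp6, auxiliary subunits of Kv4 channels, gave -0.58 (adjusted p = 4.84e-06) and -0.34 (adjusted p = 9.28e-05) against WT H1.4. Cntnap2, which clusters Kv1 channels beside nodes, gave -0.46 (adjusted p = 3.98e-05). Amigo1, an auxiliary subunit of Kv2 channels, gave -0.30 (adjusted p = 0.000659). The secreted Kv1 regulator gene Lgi1 fell further, with 18.6 ± 4.32 CPM in H1.4 CFT, 34.3 ± 2.51 CPM in WT H1.4 and 42.1 ± 0.975 CPM in GFP (log2 fold change -0.89 with SE 0.12, adjusted p = 0.000129 against WT H1.4). Its relative Lgi3 was the gene that rose (log2 fold change 0.87 with SE 0.16, adjusted p = 0.000261). Of the hyperpolarization-activated channel genes, Hcn2 and Hcn3 fell against WT H1.4 (-0.48 and -0.52, adjusted p of 0.00622 and 0.000203), and Hcn4 did not pass.

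The fitted falls were deeper in libraries 3 and 4 than in libraries 1 and 2. Earlier results on these data had shown that libraries 1 and 2 resemble each other and that 3 and 4 do, and no label names a batch. Fitted on libraries 1 and 2 alone, 31 of the 33 members that fell against WT H1.4 had negative values, with a median log2 fold change of -0.30. The exceptions were Kcna1, at 0.0017, and Kcng3, which did not pass the filter there. In libraries 3 and 4 all 33 were negative, with a median of -0.66, and 30 of 32 stood lower there than in libraries 1 and 2. The 33 were called in a fit that held these same libraries, so their shared sign is no separate support. Over all tested genes 23.7% were lower and 20% higher in libraries 3 and 4 alone, and 15.7% and 12.3% in libraries 1 and 2. The share of all genes with deeper falls in libraries 3 and 4 was not computed. Kcnj4 gave -0.11 in libraries 1 and 2 and -0.81 in libraries 3 and 4, and Kcng2 gave -0.72 and -1.77. The 5 members that rose kept their sign in both, and Kcnt1 gave 1.54 and 1.62. In libraries 1 and 2 alone 21 members fell by the test (background 15.7%), and the adjusted p of the falls no longer called ran from 0.0559 (Kcna4) to 0.988 (Kcna1). The others were Kcnab2, Kcnb2, Kcnh2, Kcnh3, Kcnj4, Kcnj11, Kcnk10, Kcnq3 and Kcns3. Of the rises, Kcnh5 did not pass there (adjusted p = 0.0943), and Kcne5 did not pass in libraries 3 and 4 (log2 fold change 0.20, adjusted p = 0.176). The difference between the library pairs was not tested.

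**Figure D5:**
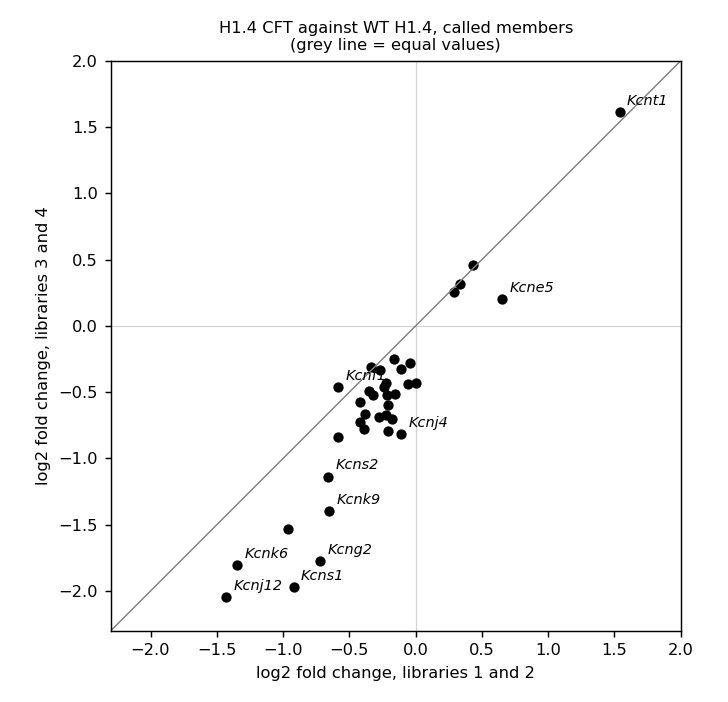
Log2 fold change of H1.4 CFT against WT H1.4 in libraries 1 and 2 alone (x axis) and in libraries 3 and 4 alone (y axis), for the 37 called members with a value in both. The grey line marks equal values. Most falls lie below the line, and Kcnt1 lies close to it at 1.54 and 1.62.

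Counting by symbol leaves an uncertainty at overlapping genes. The spans of 43 of the 90 members overlap another gene in the RefSeq table of GRCr8, mostly unnamed loci, and whether the counting used strand is not given. Named overlaps among the members described were Gca for Kcnh7, Igsf8 for Kcnj9, Nphp4 for Kcnab2, Mcrs1 for Kcnh3 and a copy gene, Kcnd2l1, for Kcnd2.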

How the data were processed

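The authors deposited raw counts per gene symbol for 11 libraries, made with STAR 2.7.2b and HTSeq 0.10.0 on build mRatBN7.2, per the submitters' processing notes. The annotation release and strand setting are not given in the sources used here. Counts were used as deposited, without the 5 counter summary entries (45.2% to 46.0% of reads fell in no feature). The labels call the libraries biological replicates.

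In R 4.3.3, edgeR 4.0.16 was fitted once over all libraries and genes (filterByExpr with minimum count 10 and minimum total 15, TMM scaling, group alone, robust quasi-likelihood test, 8 residual degrees of freedom). The Benjamini-Hochberg adjustment ran over 17294 genes in each comparison, and calls had an adjusted p under 0.05. The SE is the log2 fold change divided by the root of the F statistic. The fit was also run on counts simulated from its own estimates of level and spread, without a difference between library pairs. That run checks the code and is no support for the calls. The members and lists were chosen with earlier results of these data known.

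Residuals of equally numbered libraries correlated at 0.142 to 0.192 (H1.4 CFT and WT H1.4, 4 pairs) and 0.124 to 0.255 (H1.4 CFT and GFP, 3 pairs). The highest correlation was not always with the same number. CFT 1 correlated best with WT 2, CFT 4 with WT 3, and CFT 3 with GFP 4. Pairing by number was therefore not established, and the main calls use group alone. An alternative fit had the number as a block. Per-library values were given for the 8 largest falls and rises of at least 1 CPM against each group, for calls in WT H1.4 against GFP and for the 5 members of highest mean CPM, and those of other members were added after their values were seen. Alternatives were RLE scaling, DESeq2 1.42.0, limma-voom (limma 3.58.1), other low-count filters, other sets of libraries and the omission of each library. Protein sequences were not used here, and some members are counted but not reported here by name.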

Additional observations from a re-analysis of the deposited data

Results flagged for a closer look

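Kcnk9 had 98.3 CPM in WT 2, above 86.0 to 88.0 CPM in the other WT H1.4 libraries, a gap of 0.836 of the group's range. Among 48 sets of 4 libraries checked (members named by the rule, in H1.4 CFT and in WT H1.4), this was the 1 library that stood apart by Dixon's 95% limit for 4 samples, and chance flags about 1 in 20 such groups.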

How the results depend on the processing

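For the called members reported by name and those of highest mean CPM, 1544 fold changes were computed under alternatives, and 1447 kept their direction and side of the threshold. Other members without a call are not among them, and some were gained, as given with their genes. Of the 38 calls with H1.4 CFT against WT H1.4, 24 were kept in every alternative in which the gene was tested and 32 in every such fit without 1 library. Kcng3 is among both and was tested in 5 of those 11 fits. Of 34 calls against GFP the numbers were 25 and 25. The single call in WT H1.4 against GFP was kept in neither sense. Where a value below moved, the cause was not tested. Members near 1 CPM rest on few counts per library, which limits the precision of their sizes, and the p-values measure the spread between these cultures alone.

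In libraries 1 and 2 alone, 21 members fell (background 15.7%) and 2 partner genes rose (background 12.3%) against WT H1.4, and the values of Kcna1 and Kcnd3 were 0.0017 and 0.041. Without the low-count filter, 2 Kv alpha genes rose, 2 auxiliary genes fell and 1 Kv7 gene rose against WT H1.4, and 4 K2P genes fell against GFP (backgrounds 10.2% higher and 11.9% lower against WT H1.4, 10.1% lower against GFP). In WT H1.4 against GFP that fit called 1 modifier gene and 1 calcium- or sodium-activated gene lower and 1 Kv7 gene higher, which with Kcne5 made 3 members lower (background 0.735%) and 1 higher (0.844%), beside 1 partner gene higher and 1 lower.

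With the replicate block, 6 members rose (background 18.6%) and 34 fell (20.8%) against WT H1.4, 4 rose (14.5%) and 32 fell (17.9%) against GFP, and among the members described by name no call changed other than those given with their genes. In WT H1.4 against GFP the numbers correlated at 0.206, 0.113 and 0.0927, and WT 3 and WT 4 correlated best with GFP 4 and GFP 3. Pairing by number was not established there either. The block there called 3 members lower (background 0.711%) and 1 higher (0.723%), with Kcnt1 and Kcnv1 among those added, and 1 partner gene higher. Partner genes higher in H1.4 CFT against GFP were 2 with the block (background 14.5%) and 2 with a term for libraries 1 and 2 against 3 and 4 (16.8%). They were 2 in libraries 3 and 4 alone (17.2%), and 0 to 1 with 1 library left out (9.41% to 13.1%).

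The number lower in WT H1.4 against GFP was 0 with RLE scaling (background 0.486%), 3 with DESeq2 (0.951%) and 2 with only the groups compared (1.06%). It was 3 with the term for library pairs (1.14%) and 5 in libraries 3 and 4 alone (3.75%). With 1 library left out it was 0 to 3 (backgrounds 0.164% to 0.816%). The number higher was 1 with only the groups compared (background 1.04%) and 5 in libraries 3 and 4 alone (5.5%), and the counts in libraries 3 and 4 are near their backgrounds. Partner genes gave 1 lower with only the groups compared (background 1.06%), 1 higher with the term (1.19%) and 5 higher in libraries 3 and 4 alone (5.5%).

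Values near 0 changed sign. Kcnd3 in H1.4 CFT against GFP was -0.0024 with DESeq2, -0.0024 without the filter and -0.022 to 0.025 with 1 library left out. Kcnk10 in WT H1.4 against GFP was 0.0054 with the replicate block, 0.0027 with the term, 0.067 in libraries 3 and 4 alone and -0.054 to 0.031 with 1 library left out.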
